A study of Danio rerio with 20 samples.

Results

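The 6 genes described here, atf5a, ddit3, chac1, sesn2, asns and slc1a4, are known as genes that cells switch on when amino acids run short or when protein synthesis is disturbed. They were chosen by their CPM over all cells and within classes, which was raised in mutant zebrafish embryos over siblings, so their difference between mutants and siblings is given as a description, without a test. They are 6 of the 26651 genes counted, and each had at least 5 UMIs on every one of the 20 plates. They are given here by cell type, stage, treatment and genotype, over wells with at least 1500 UMIs, leaving out skin cells recognised by a krt4 level of at least 1000 CPM (a count scaled so that every sum has the same number of UMIs).

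When amino acids are scarce or misfolded proteins build up, kinases phosphorylate the translation factor eIF2. General translation then falls while the transcription factor ATF4 is translated more, and ATF4 raises genes for amino acid synthesis, uptake and tRNA charging. Prolonged signalling through this integrated stress response also raises genes known from cell death. LY294002 is an inhibitor of phosphatidylinositol-3 kinase. Most of what is known of the roles given below comes from mammalian cells.

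The members fall into 3 roles. The transcription factors are atf5a (ENSDARG00000068096), related to ATF4 and controlled in the same way, and ddit3 (ENSDARG00000059836), which encodes CHOP, a factor known from cell death under stress. The effectors are chac1 (ENSDARG00000070426), which encodes an enzyme that breaks down glutathione, and sesn2 (ENSDARG00000070012), which encodes a leucine-binding inhibitor of mTORC1. Amino acid supply is represented by asns (ENSDARG00000016375), asparagine synthetase, and slc1a4 (ENSDARG00000000551), a transporter of neutral amino acids such as serine and alanine.

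Single cells had been sorted from pooled tg(kdrl:mCherry/cd41:eGFP) embryos as kdrl positive and cd41 low, and were sequenced by SORT-seq, which counts transcripts of each well with unique molecular identifiers (UMIs). From the caudal hematopoietic tissue (CHT) at 5 dpf there were 2 plates of mutants (M1, M2) and 2 of their siblings (S1, S2). S1 was of sort day 8, M2 of day 9, and M1 and S2 of days 8 to 9, so that genotype and sort day cannot be fully told apart. There were also 2 CHT plates of LY294002-treated embryos (V1, V2) and 2 of wildtype controls (W1, W2), all of sort day 13. From the aorta-gonad-mesonephros region (AGM) at 36 hpf there were 5 plates of LY294002-treated embryos (L1 to L5), 4 of wildtype controls (C1 to C4), and 3 on which the label places wells of both treatments (X1 to X3). The study's methods name DMSO as the control of LY294002, while the labels of the control plates say wildtype alone. They describe an early and a late treatment with LY294002, the late one ending before 5 dpf. Which of these the sequenced embryos received is not stated there. The genotypes of the siblings on these plates are not given in the sources used here. Embryos were pooled before sorting, so that p-values measure the spread between plates, which may be technical. The labels of 14 plates say that some wells were not used in the study, and the layout naming them was not used here.

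The 20 plates had 7680 wells, of which 6116 reached 1500 UMIs, 698 were krt4-high and 5418 were used. Total UMIs of the cells used were between 1676056 and 7817749 per plate, and the median cell of a plate had between 6284 and 15304 UMIs. In the CHT krt4-high wells were most frequent among the mutants, with 79 and 81 such wells, against 5 and 17 on the sibling plates. In mutants the median cell was shallower, with 8566 and 11852 UMIs, against 12439 and 12518 UMIs in siblings.

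In the CHT at 5 dpf all 6 genes were higher in both mutant plates than in both sibling plates. Atf5a had 119 and 216 CPM in mutants, against 14.5 and 10.6 CPM in siblings. Slc1a4 had 163 and 166 CPM in mutants, against 11.4 and 15.2 CPM in siblings. Sesn2 had 51.9 and 64.0 CPM in mutants, against 5.52 and 8.41 CPM in siblings. These 3 genes were rare in siblings, with between 29 and 76 UMIs on a whole sibling plate, and common in mutants, with between 129 and 842 UMIs. Chac1 had 505 and 527 CPM in mutants, against 147 and 207 CPM in siblings. Asns had 116 and 139 CPM in mutants, against 43.4 and 43.5 CPM in siblings. Ddit3 had 144 and 197 CPM in mutants, against 84.0 and 102 CPM in siblings, so that of the 6 genes the gap between the groups was narrowest for ddit3.

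On the log2 scale the mutant minus sibling difference was 3.68 ± 0.33 for atf5a (SE, n = 2 plates each) and 3.58 ± 0.20 for slc1a4. It was 3.02 ± 0.26 for sesn2 and 1.502 ± 0.160 for asns. It was 1.48 ± 0.21 for chac1 and 0.82 ± 0.20 for ddit3. Every SE given here and below was derived from the F statistic of the edgeR fit, whose estimate of spread draws on all genes. Such an SE does not measure the spread of a gene's own plates alone, and for the members in this comparison it is no test. Of all 12623 genes tested in this comparison 2.76% passed an adjusted p of 0.05 (274 up and 74 down), and 29.6% had both mutant plates above both sibling plates. The median log2 difference was 2.26 for the 6 genes and -0.01 for all genes tested, which the choice of the members fixes. In sums over all cells of a plate, fewer cells of a type and less RNA per cell cannot be told apart.

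**Figure D1:**
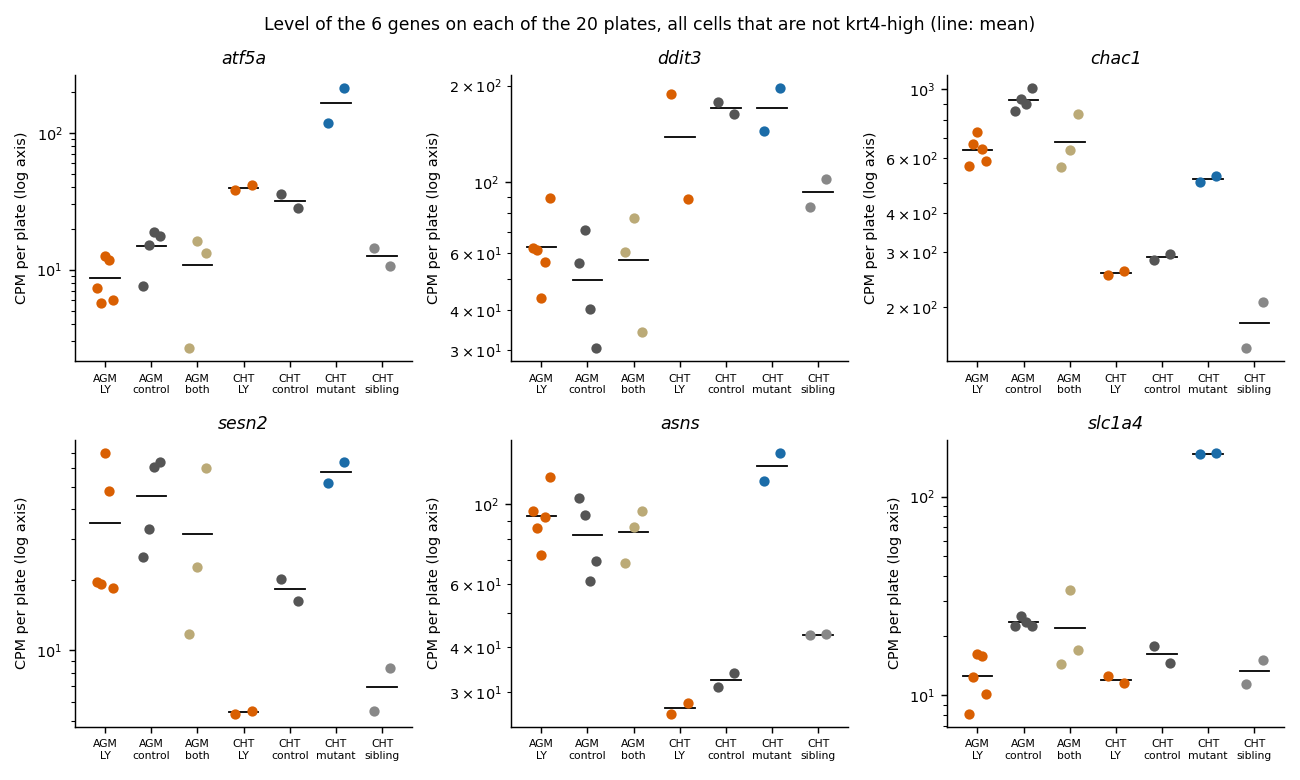
Level of each of the 6 genes on each of the 20 plates, in CPM over all cells that are not krt4-high, on a log axis. Points are plates, lines are group means, and LY stands for LY294002. The 2 mutant plates lie above the 2 sibling plates for all 6 genes, and slc1a4 is above 160 CPM in mutants only, with no other plate above 34.0 CPM.

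The makeup of the cells differed between mutants and siblings as well. Summed levels of the Erythrocyte markers (6 of 6 detected on every plate) were 18473 and 31099 CPM in mutants, against 10168 and 9192 CPM in siblings. Of the HSPC markers, 16 of 16 were detected on every plate, and they summed to 5595 and 4089 CPM in mutants, against 6448 and 6584 CPM in siblings. The Skin markers that remained after the krt4-high wells had been taken out summed to 3419 and 2857 CPM in mutants, with 3 and 1 of the 14 at 0, against 2388 and 2443 CPM in siblings, with 3 of the 14 at 0 on each plate. The EHT list, which holds keratins of epithelium, summed to 945 and 1017 CPM in mutants, against 432 and 498 CPM in siblings. The Monocyte markers summed to 903 and 1173 CPM in mutants, against 547 and 535 CPM in siblings. The part that these differences in makeup have in the summed levels was not tested, but the genes can be followed within classes of cells.

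Cells of the 4 plates were grouped into 5 clusters without using the 6 genes or the pathway lists. Of these, 266 cells with all 6 Erythrocyte markers raised are called Erythrocyte-like, and 228 cells with 14 of 16 HSPC markers raised are called HSPC-like. Clusters 2 and 3 had raised markers of several classes and are given by number. Cluster 2 (297 cells) had all 8 Thrombocyte/erythrocyte markers and 12 of 16 HSPC markers raised, and cluster 3 (370 cells) had all 9 Myeloid and all 10 Neutrophil markers raised. A further 14 cells with muscle transcripts were left out.

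In Erythrocyte-like cells the log2 difference between mutants and siblings was wider than in the plate sums for 5 of the 6 genes, all but atf5a. Slc1a4 had 241 and 233 CPM in mutants, against 6.54 and 8.12 CPM in siblings. Sesn2 had 131 and 126 CPM in mutants, against 3.93 and 10.8 CPM in siblings. Atf5a had 366 and 486 CPM in mutants, against 39.3 and 56.8 CPM in siblings. The Erythrocyte-like cells of the mutants held higher atf5a, chac1, sesn2 and slc1a4 levels than the other 3 classes on the same plates. Chac1 had 811 and 733 CPM in mutants, against 64.1 and 144 CPM in siblings. Asns had 145.8 and 153.5 CPM in mutants, against 30.1 and 32.5 CPM in siblings. Ddit3 had 230 and 217 CPM in mutants, against 27.5 and 152 CPM in siblings. The sibling plates differed most from each other for ddit3, and for each of these 6 genes they stayed below both mutant plates. The log2 difference was 5.03 ± 0.33 for slc1a4 (SE, n = 2 plates each), 4.32 ± 0.40 for sesn2 and 3.19 ± 0.28 for atf5a, and it was 2.93 ± 0.31 for chac1, 2.26 ± 0.27 for asns and 1.44 ± 0.46 for ddit3. Leaving out 1 plate moved ddit3 here to 0.44 without S1 and 3.05 without S2, against between 0.59 and 1.02 for its plate sums with 1 plate left out. Of all genes tested in this class 14.1% passed the test (512 up and 312 down), and 29.5% had both mutant plates above both sibling plates. The count of 824 genes was 78 without S1, 241 without M1, 363 without M2 and 358 in DESeq2.

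Erythrocyte-like cells numbered 60 and 129 in mutants, against 47 and 30 in siblings, and were not the same in other respects. Their Erythrocyte markers summed to 68457 and 77981 CPM in mutants, against 39324 and 53850 CPM in siblings. Their HSPC markers summed to 2953 and 2090 CPM in mutants, against 4121 and 3524 CPM in siblings, and their Skin markers to 2393 and 1986 CPM in mutants, against 695 and 866 CPM in siblings. Of the marker genes, 2 named after their values were seen stood out. Within the class the myb level was lower in mutants (log2 difference -1.90 ± 0.21, edgeR adjusted p = 1.7e-05) and the alas2 level, for the first enzyme of heme synthesis, was higher (1.59 ± 0.18, adjusted p = 2.3e-05). How far these differences move the 6 genes was not tested.

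In HSPC-like cells 5 of the 6 genes were higher in both mutant plates. Slc1a4 had 141 and 129 CPM in mutants, against 19.1 and 27.5 CPM in siblings. Chac1 had 367 and 351 CPM in mutants, against 83.3 and 117 CPM in siblings. The stress transcription factors parted here, since atf5a had 41.3 and 51.4 CPM in mutants, against 10.2 and 9.14 CPM in siblings, while ddit3 did not separate the groups. Ddit3 had 86.8 and 105 CPM in mutants, against 92.3 and 101 CPM in siblings, a log2 difference of -0.13 ± 0.20 (SE, n = 2 plates each), which was above 0 under 5 other settings (between 0.21 and 0.51). The differences were 2.43 for slc1a4, 2.28 for sesn2, 2.11 for atf5a, 1.73 for chac1 and 0.99 for asns. Of all genes tested in these cells 0.343% passed the test and 27.2% had both mutant plates above both sibling plates. The count of 23 genes was 653 without M1, 93 without M2 and 0 without S1 or without S2. The class held 38 and 21 mutant cells, against 94 and 75 sibling cells.

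Cluster 2 had all 6 genes above the siblings in both mutant plates, with slc1a4 at 91.1 and 150 CPM in mutants, against 7.93 and 11.2 CPM in siblings. Ddit3 was at 86.9 and 111 CPM in mutants of this cluster, against 33.9 and 32.4 CPM in siblings. The log2 differences in cluster 2 lay between 1.31 for asns and 3.66 for slc1a4, where 2.95% of all genes passed the test and 21.9% had both mutant plates above both sibling plates. The count of 238 genes was 376 without M1 and 106 in DESeq2. Cluster 3, with the neutrophil and myeloid markers, differed in that chac1 and ddit3 overlapped between the groups. Chac1 had 600 and 537 CPM in mutants, against 517 and 597 CPM in siblings, a log2 difference of -0.09. Ddit3 had 172 and 301 CPM in mutants, against 236 and 213 CPM in siblings. Atf5a, in contrast, had 61.8 and 77.4 CPM in mutants of cluster 3, against 4.41 and 4.17 CPM in siblings, a log2 difference of 3.86, and slc1a4 had 188 and 127 CPM in mutants, against 11.0 and 11.5 CPM in siblings. Of all genes tested in cluster 3, 0.395% passed the test and 28.9% had both mutant plates above both sibling plates. The count of 32 genes was 666 without M1, 403 without M2, 117 without S2 and 100 in DESeq2. The cells of cluster 3 differed in other respects too, with Myeloid markers summing to 2591 and 3012 CPM in mutants, against 4699 and 4821 CPM in siblings, and the EHT list to 2021 and 2373 CPM in mutants, against 1236 and 1199 CPM in siblings, and their part in the levels of the 6 genes was not tested. Atf5a, asns, sesn2 and slc1a4 were thus higher in both mutant plates in all 4 classes, and chac1 and ddit3 in some of them. In the krt4-high wells, which no class holds, 3 of the 6 genes (slc1a4, asns and ddit3) were higher on both mutant plates, as were 29.7% of all genes.

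**Figure D2:**
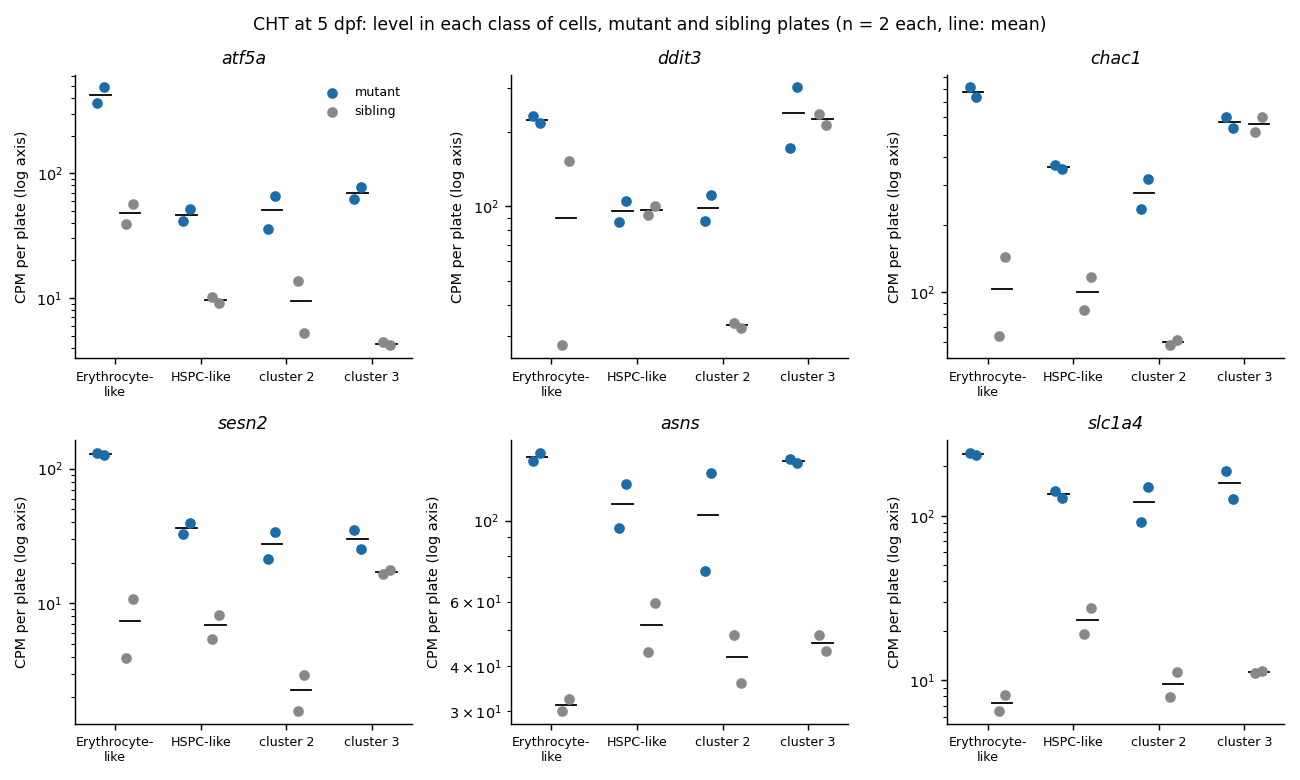
Level of the 6 genes in 4 classes of cells of the CHT at 5 dpf, in CPM on a log axis, for mutant plates (left of each pair) and sibling plates (right), 2 plates each with their mean as a line. The widest gaps are those of slc1a4 and sesn2 in Erythrocyte-like cells, and chac1 and ddit3 in cluster 3 overlap between the groups.

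The level of a class can rise because more cells hold a transcript or because each holds more. The share of cells with a UMI cannot tell these apart, since it rises in either case, and it is given as a description. To compare cells at 1 depth, each was thinned to 5000 UMIs, which left out 16 and 13 Erythrocyte-like cells of the mutant plates and 3 and 4 of the sibling plates. Intervals and limits here cover counting error within a plate only. Atf5a was then found in 63.6% (95% Wilson interval 48.9 to 76.2%) and 78.45% (70.1 to 84.95%) of Erythrocyte-like cells of mutants, against 20.45% (11.15 to 34.5%) and 30.8% (16.5 to 49.99%) in siblings. Before thinning these shares were 76.7% and 89.9% in mutants, against 29.8% and 30.0% in siblings. Slc1a4 was found in 61.4% and 62.1% of these cells in mutants, against 1 of 44 and 0 of 26 cells in siblings, where the count of 0 allows up to 11.5% of cells with a UMI at this depth. Before thinning slc1a4 was found in 5 of 47 and 1 of 30 sibling cells. Chac1 was found in 88.6% and 92.2% in mutants, against 29.55% and 42.3% in siblings. For all 3 genes the mutant plates lay above the sibling plates, a direction that the choice of the members fixes.

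The number of members found per cell restates these shares and was not set against the number that independent genes would give. In Erythrocyte-like cells at 5000 UMIs, 23 of 44 and 64 of 116 mutant cells (52.3% and 55.2%) held at least 4 of the 6 transcripts, against 0 of 44 and 1 of 26 sibling cells, where the count of 0 allows a share of up to 6.82%. The median cell held 4 of the 6 in both mutant plates and 1 of the 6 in both sibling plates. In HSPC-like cells at least 4 of the 6 were found in 6 of 33 and 4 of 20 mutant cells, against 1 of 85 and 0 of 63 sibling cells, and the median cell held 2 of the 6 in mutants and 1 of the 6 in siblings.

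**Figure D3:**
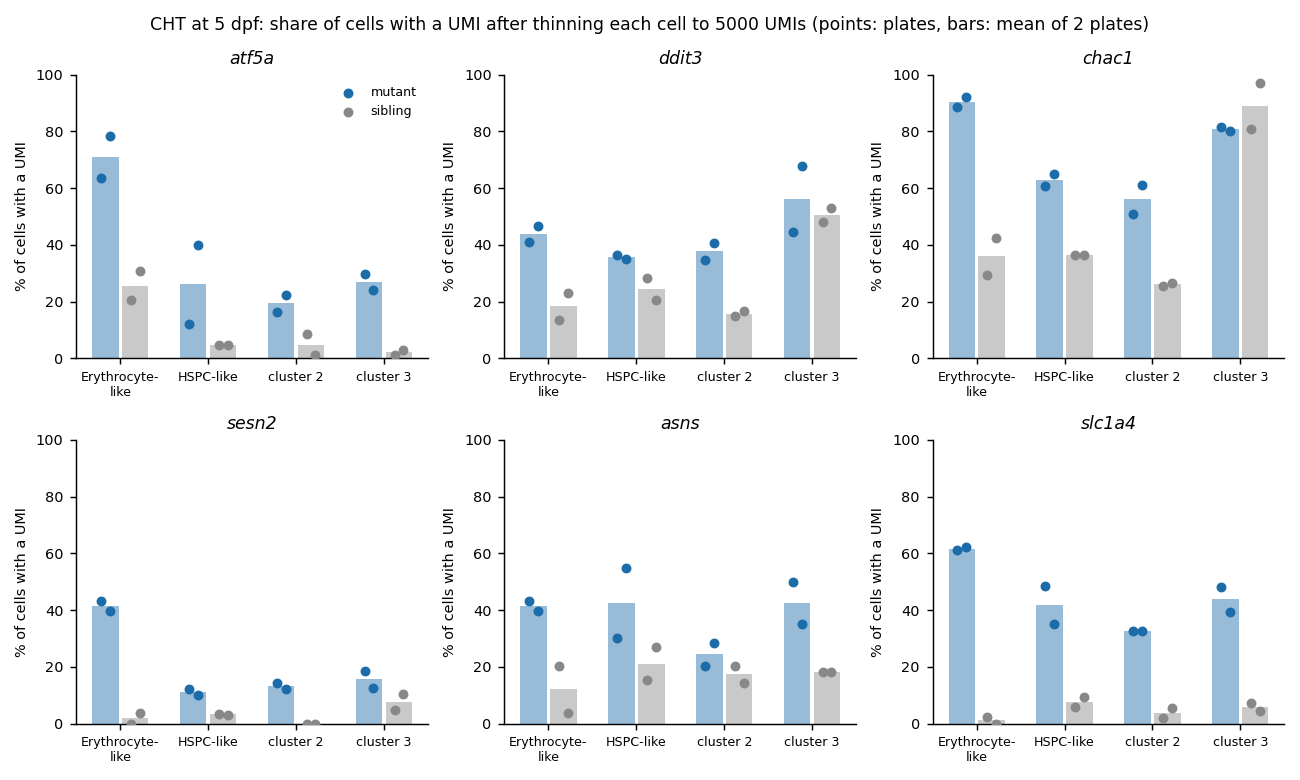
Share of cells, in percent, in which each of the 6 genes was found after every cell had been thinned to 5000 UMIs, by class of CHT cells at 5 dpf. Bars are means of 2 plates, points are plates, with mutants left of siblings. For slc1a4 the Erythrocyte-like shares are 61.4% and 62.1% in mutants, against 1 of 44 and 0 of 26 cells in siblings.

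Further genes of the amino acid response were counted from lists drawn up with earlier results of these data known, so that their direction is no independent evidence. Over all cells, 6 of 11 tested genes of amino acid and 1-carbon synthesis were higher in mutants and none was lower, with a median log2 difference of 1.59, against -0.01 over all genes tested. For phgdh, which opens serine synthesis, the levels were 143 and 160 CPM in mutants, against 8.37 and 10.8 CPM in siblings (3.93 ± 0.20, adjusted p = 0.0015). Psat1, the next enzyme of that pathway, was higher by 3.12 ± 0.27 (adjusted p = 0.0091), as were cbsb by 2.76, mthfd1l by 2.67, cth by 1.63 and aldh1l2 by 1.59. These enzymes act in the synthesis of serine and cysteine and in the metabolism of 1-carbon units. The count of 6 was reached with any 1 plate left out. Of 11 tRNA synthetases tested 8 were higher and none was lower, with a median log2 difference of 1.12. For nars, which charges the asparagine tRNA, the levels were 1165 and 1489 CPM in mutants, against 395 and 411 CPM in siblings (1.67 ± 0.18, adjusted p = 0.016). With sibling plate S1 left out, 2 of the 11 synthetases passed, and with S2 left out, 6.

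The other lists rested more on single plates. Of 10 genes of ATF4 and its partner factors, trib3 (1.35 ± 0.18) and atf3 (1.16 ± 0.19) were higher over all cells, and without S1 none of the list passed, while without M1 4 did. Of 17 genes of the ER stress arm, xbp1, pdia4 and hyou1 were higher by 1.46, 1.25 and 1.04, and without S1 none passed either, while without M1 8 did. Among 9 amino acid transporters slc7a3a, a carrier of cationic amino acids, was higher by 1.53 ± 0.17, and without M1 3 of the list were. None of 9 eIF2 kinases and phosphatase subunits and none of 9 NRF2 targets passed the test. Transcripts of ATF4 itself, named after their values were seen, were at 719 and 810 CPM for atf4a in mutants, against 408 and 463 CPM in siblings, and did not pass the test over all cells. In Erythrocyte-like cells the log2 difference was 0.91 for atf4a (between 0.83 and 1.00 with 1 plate left out). For atf4b it was 0.73 there (between 0.41 and 1.05), and 0.97 in cluster 2.

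In Erythrocyte-like cells the lists had larger differences. There 9 of 11 tRNA synthetases, 7 of 10 genes of amino acid and 1-carbon synthesis, 5 of 8 genes of ATF4 and its partners, 5 of 10 genes of the ER stress arm, 3 of 5 transporters and 1 of 6 eIF2 kinases and phosphatase subunits were higher in mutants, and none of these was lower, where 14.1% of all genes passed in either direction. For trib3, a pseudokinase known as an ATF4 target, the levels were 117 and 118 CPM in mutants, against 11.8 and 8.12 CPM in siblings (3.46 ± 0.34, adjusted p = 6.6e-06). For xbp1, a factor of the unfolded protein response, the levels were 479 and 437 CPM in mutants, against 20.9 and 56.8 CPM in siblings (3.68 ± 0.35). None of 6 NRF2 targets passed. Leaving out S1 lowered these counts to 5 for the synthetases, 3 for amino acid synthesis, 2 for ATF4 and partners and 1 for ER stress, and leaving out M1 lowered them to 8, 3, 3 and 1 in the same order. The count of transporters was 1 without S1 or without M1, and without M2 the count of ATF4 and partners was 3.

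The paralogs of the members did not all follow them. For atf5b, the second atf5 gene of zebrafish, the levels were 34.6 and 45.8 CPM in mutants, against 2.28 and 2.40 CPM in siblings (4.04 ± 0.27, adjusted p = 0.0037). In Erythrocyte-like cells atf5b had 34 and 115 UMIs in mutants, against 0 and 0 UMIs in siblings, which makes it at least 28.9-fold higher against a floor of 3 UMIs over the sibling cells. The level of sesn1, unlike that of sesn2, was lower in mutants, with 4.83 and 3.33 CPM in mutants, against 14.8 and 18.5 CPM in siblings (-2.11 ± 0.34, adjusted p = 0.033), and did not pass without M2 (adjusted p = 0.056) or without S2 (adjusted p = 0.057). Chac2 (-0.75), asnsd1 (-0.41) and sesn3 (0.17) did not pass the test.

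The next question was whether the genes differ between the stages in wildtype embryos. CHT controls at 5 dpf were set against AGM controls at 36 hpf, a contrast in which tissue, stage and sort day cannot be told apart and 32.7% of all 12897 genes tested passed (1878 up and 2333 down, median log2 difference -0.18). The members split. The transcription factors were higher in the CHT, and chac1 and asns were lower. The makeup of the cells differed as well, with Neutrophil markers (10 of 10 detected on every plate) summing to between 3930 and 4089 CPM in the CHT, against between 21157 and 41608 CPM in the AGM, and Erythrocyte markers (6 of 6) to between 28641 and 33223 CPM in the CHT, against between 538 and 2440 CPM in the AGM. The part of this difference in the levels of the 6 genes was not tested. Ddit3 had 177 and 163 CPM in the CHT, against 56.0, 71.0, 40.2 and 30.4 CPM in the AGM (2.14 ± 0.26, adjusted p = 0.0016). Atf5a had 35.7 and 28.2 CPM in the CHT, against 7.55, 15.2, 18.8 and 17.6 CPM in the AGM (1.40 ± 0.38, adjusted p = 0.028). Chac1, at 283 and 296 CPM in the CHT, against 854, 932, 899 and 1014 CPM in the AGM, was lower by a log2 difference of -1.36 ± 0.19 (adjusted p = 0.0028). Asns had 31.0 and 33.9 CPM in the CHT, against 104, 93.6, 61.4 and 69.4 CPM in the AGM (-0.995 ± 0.217, adjusted p = 0.014). Sesn2 (-1.04 ± 0.49, adjusted p = 0.14) and slc1a4 (-0.21 ± 0.20, adjusted p = 0.45) did not pass. All CHT plates lay above all AGM plates for atf5a and ddit3, as for 17.1% of all genes, and below them for the other 4 members, as for 41.2% of all genes.

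Of these calls, those of ddit3 and chac1 held with any 1 plate left out. Atf5a did not pass without C2 (adjusted p = 0.055), W1 (0.19) or W2 (0.12), and asns did not pass without W1 (0.12) or W2 (0.095), where the lone CHT plate is assumed to vary like the others. With wells thinned to 1500 UMIs neither passed, with atf5a at 1.12 (adjusted p = 0.091) and asns at -0.31 (adjusted p = 0.45), nor did atf5a with krt4-high wells kept (adjusted p = 0.066), while sesn2 passed without C1 (-1.25, adjusted p = 0.043). The siblings of the mutants were also set as the CHT group in place of the W plates. Their values entered the choice of the members, so these differences are given without a test. Atf5a was at -0.18, so that its higher level in the CHT was not seen there. Sesn2 (-2.67), slc1a4 (-0.73), chac1 (-2.30) and ddit3 (1.04) kept their direction. So did asns, at 43.4 and 43.5 CPM in siblings, below the lowest AGM control plate (61.4 CPM). Of the lists, read beside the 32.7% of all genes that passed, 15 of 17 genes of the ER stress arm were lower in the CHT and 1 was higher, 1 of 10 genes of ATF4 and partners was higher (nupr1a, 2.62) and 4 were lower (jdp2b, cebpg, trib3 and cebpb, between -2.48 and -1.03), and 3 of 8 eIF2 kinases and phosphatase subunits were higher, among them eif2ak1, the heme-regulated kinase, by 1.41. With the siblings as the CHT group eif2ak1 was at 0.28 (adjusted p = 0.24). The ER stress count was 7 lower without W1 and 8 without W2, with none higher, and the count of eIF2 kinases and phosphatase subunits was 1 without W1 or without W2. Of the ATF4 partners, jdp2b and cebpb did not pass without W1 (adjusted p = 0.060 and 0.10) or without W2 (adjusted p = 0.14 and 0.10). The serine synthesis gene phgdh was lower in the CHT (-3.11), and did not pass without W2 (-2.44, adjusted p = 0.056).

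In the AGM, LY294002-treated embryos were set against controls. Of all 13349 genes tested 0.584% passed (54 up and 24 down), and 2243 had an unadjusted p under 0.05. None of the 6 members passed in edgeR. Of the 6 genes chac1 and slc1a4 were lower in every LY294002 plate than in every control plate, which was so for 5.18% of all genes. Chac1 had 566, 666, 732, 644 and 587 CPM in LY294002-treated embryos, against 854, 932, 899 and 1014 CPM in controls (-0.47 ± 0.13, adjusted p = 0.11). Slc1a4 had 8.11, 12.4, 16.1, 15.8 and 10.1 CPM in LY294002-treated embryos, against 22.3, 25.2, 23.5 and 22.4 CPM in controls (-0.86 ± 0.20, adjusted p = 0.077). Both passed in DESeq2, with adjusted p = 0.020 for chac1 and adjusted p = 0.030 for slc1a4, where 571 genes passed in all. Slc1a4 passed in edgeR without C1 (adjusted p = 0.0495), where 774 genes passed, against 78 with all plates. Within sort days 1 to 4 the differences were -0.32 for chac1 and -0.99 for slc1a4, and within days 10 to 12 they were -0.51 for chac1 and -0.67 for slc1a4. Treated embryos of the first period were sorted on day 4 and controls on day 1, and in the second period the 2 groups shared day 11 alone. The sort day and the treatment therefore cannot be told apart, and the term for the period does not separate them. The makeup of the cells moved with the treatment, with HSPC markers (16 of 16 detected on every plate) summing to between 3880 and 6380 CPM in LY294002-treated embryos, against between 5783 and 7538 CPM in controls, and Neutrophil markers (10 of 10) to between 41062 and 62259 CPM in LY294002-treated embryos, against between 21157 and 41608 CPM in controls. Slc1a4 was higher in HSPC-like than in Neutrophil-like cells on C1 to C4 and X3, no LY294002 plate held 20 HSPC-like cells, and the part of the makeup in its level over all cells was not tested.

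The other members overlapped between treated and control plates. Atf5a had 7.33, 5.71, 12.7, 11.7 and 5.97 CPM in LY294002-treated embryos, against 7.55, 15.2, 18.8 and 17.6 CPM in controls (-0.75 ± 0.28, adjusted p = 0.21). Sesn2 had 19.6, 19.2, 69.8, 48.0 and 18.5 CPM in LY294002-treated embryos, against 25.0, 33.1, 60.5 and 64.0 CPM in controls (-0.44 ± 0.28, adjusted p = 0.46). In controls sesn2 parted the plates by sort period, with those of days 10 to 12 highest. In treated embryos L3 and L4 of days 10 to 12 were highest, while L5 of the same period was lowest, so the periods overlapped. Asns had 95.6, 86.0, 72.5, 92.0 and 119 CPM in LY294002-treated embryos, against 104, 93.6, 61.4 and 69.4 CPM in controls (0.31 ± 0.18, adjusted p = 0.42). Ddit3 had 62.6, 61.4, 43.7, 56.2 and 89.5 CPM in LY294002-treated embryos, against 56.0, 71.0, 40.2 and 30.4 CPM in controls (0.51 ± 0.24, adjusted p = 0.31). On the plates of both treatments, which entered no test of the treatment, chac1 had 563, 638 and 833 CPM and slc1a4 had 14.4, 34.0 and 16.9 CPM.

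Within classes of AGM cells, none of the members tested passed between LY294002-treated embryos and controls in Neutrophil-like cells (0.0794% of all genes passed), Monocyte-like cells (0.0161%) or cluster 1 (2.06%), a cluster with both HSPC and EHT markers raised. Within sort days 1 to 4 the count of genes was 303 in Neutrophil-like cells, against 5 over all plates, and 415 in Monocyte-like cells, against 1 over all plates, where the treated arm of the Monocyte-like fit was the single plate L2. With 1 plate left out it was between 4 and 23 in Neutrophil-like cells (23 without L5, 22 without C1) and between 0 and 9 in Monocyte-like cells (9 without L2). The count of 229 in cluster 1 was 17 without L1, 33 without C2 and 47 without C4. With cells clustered on log-scaled values, a setting chosen after seeing the data, EHT-like cells could be compared on 2 plates each, where slc1a4 had 0 and 0 UMIs in LY294002-treated embryos, against 19 and 31 UMIs in controls. That is at least 8.64-fold lower against a floor of 3 UMIs over the treated cells. It is given without a test, since slc1a4 passed the filter on low counts through the control cells alone. Of all genes 2.96% passed in this class. Its plates were C1 and C2 of sort day 1 and L1 and L2 of sort day 4, so sort day and treatment cannot be told apart. In cluster 1 the log2 difference of slc1a4 was -0.84 (adjusted p = 0.41). Its mean level in Monocyte-like cells was 23.9 CPM in treated embryos (18 UMIs), against 7.25 CPM in controls (24 UMIs). In Neutrophil-like cells it was 3.60 CPM in treated embryos, against 3.77 CPM in controls. The plates of the groups overlapped in both classes. Among the pathway lists given here, 1 gene passed over all AGM cells. Slc7a11, the cystine transporter that feeds glutathione synthesis, was higher by 1.36 ± 0.19 (adjusted p = 0.030). Slc7a11 did not pass when C2, C3, C4, L1 or L2 was left out (adjusted p between 0.054 and 0.12). All 11 tRNA synthetases were below 0, with a median of -0.53, and none passed, but 8 passed as lower without C1, where 774 genes passed in all, and 2 in DESeq2, where 571 did.

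In the CHT, LY294002-treated embryos differed from controls in 0.0101% of all 9946 genes tested, which is 1 gene, and in 1619 genes at an unadjusted p under 0.05. DESeq2 called 73 genes. No member passed. Sesn2 had 9 and 11 UMIs (5.36 and 5.50 CPM) in LY294002-treated embryos, against 56 and 49 UMIs (20.2 and 16.3 CPM) in controls, and was the member with the largest difference (-1.64 ± 0.32, adjusted p = 0.16). It passed when no filter on low counts was applied (-1.73, adjusted p = 0.00057), a setting in which 693 genes passed. Atf5a had 38.1 and 41.5 CPM in LY294002-treated embryos, against 35.7 and 28.2 CPM in controls (0.41 ± 0.19, adjusted p = 0.35). Slc1a4 had 12.5 and 11.5 CPM in LY294002-treated embryos, against 17.7 and 14.6 CPM in controls (-0.33), and asns had 26.2 and 28.0 CPM in LY294002-treated embryos, against 31.0 and 33.9 CPM in controls (-0.17). Atf5a was higher in both treated plates than in both controls, as were 19.0% of all genes, and the other 3 were lower in both, as were 31.0% of all genes. Ddit3, at 188 and 88.6 CPM in LY294002-treated embryos, against 177 and 163 CPM in controls, turned on plate V2, and was at 0.19 without it and at -0.22 with it. Chac1 had 254 and 261 CPM in LY294002-treated embryos, against 283 and 296 CPM in controls (-0.08), and was lower in both treated plates too. The makeup of the cells differed here as well. Thrombocyte/erythrocyte markers (8 of 8 detected on every plate) summed to 2857 and 2855 CPM in LY294002-treated embryos, against 3807 and 3902 CPM in controls. Myeloid markers (9 of 9) summed to 1863 and 1670 CPM in LY294002-treated embryos, against 1190 and 1104 CPM in controls, and Muscle markers (10 of 10) to 3058 and 275 CPM in LY294002-treated embryos, against 24482 and 5644 CPM in controls. Their part in the levels of the members was not tested.

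Within classes of CHT cells 2 members passed, where 4 of the 6 were tested in Erythrocyte-like cells, 6 in cluster 1 and 5 in cluster 4. In Erythrocyte-like cells slc1a4 had a mean of 8.84 CPM in LY294002-treated embryos, against 40.3 CPM in controls (5 and 42 UMIs). Sesn2 had 11.9 CPM in these treated cells, against 23.4 CPM in controls (6 and 29 UMIs), and ddit3, chac1 and asns overlapped between the groups. Atf5a in Erythrocyte-like cells had 142 and 147 CPM in LY294002-treated embryos, against 81.5 and 52.9 CPM in controls (1.44 ± 0.30, adjusted p = 0.021), where 1.23% of all genes passed (33 up and 7 down, and 215 in all without V1, 172 without V2 and 21 in DESeq2). It did not pass without W2 (1.09, adjusted p = 0.38) or in DESeq2 (adjusted p = 0.19). Chac1 in cluster 4, which had all Erythrocyte markers and 11 of 16 HSPC markers raised, had 86.1 and 66.9 CPM in LY294002-treated embryos, against 184 and 191 CPM in controls (-1.11 ± 0.26, adjusted p = 0.043), where 0.73% passed (35 genes, and 90 without V1, 88 without V2 and 15 in DESeq2). It did not pass without V2 (adjusted p = 0.11), W1 (0.079) or W2 (0.099), in DESeq2, with a minimum of 3000 UMIs, with krt4-high wells kept, with 7 clusters or with thinned wells (between 0.084 and 0.22). Cluster 1 of these cells had no member past the test and 0.0121% of all genes, which is 1 gene, and between 72 and 228 genes passed whichever plate was left out. The effect of LY294002 did not differ between CHT and AGM past the threshold for any member, a comparison made with an interaction term chosen after seeing the data. In it tissue, stage, sort day and the timing of the treatment cannot be told apart. The differences of differences were 1.10 ± 0.42 for atf5a (adjusted p = 0.46) and -1.29 ± 0.59 for sesn2 (adjusted p = 0.57), with 0.0222% of all genes past the threshold.

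**Figure D4:**
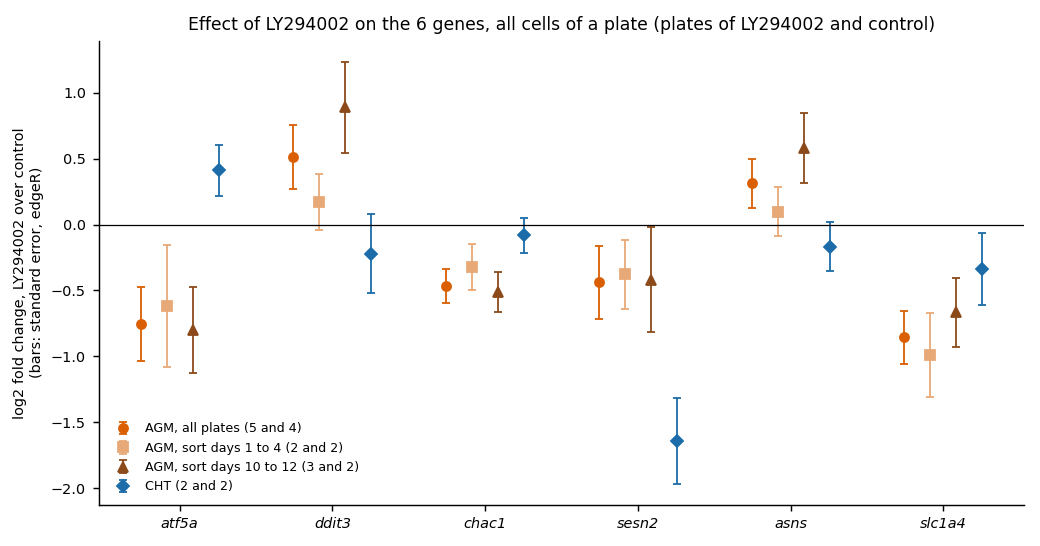
Log2 fold change of LY294002-treated embryos over controls for each of the 6 genes, over all cells of a plate, with the standard error of the edgeR fit as bars, for all AGM plates, for AGM plates of each sort period and for CHT plates. Chac1 and slc1a4 lie below 0 in all 4 fits, and sesn2 in the CHT is lowest at -1.64 ± 0.32.

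The members also marked different cells. In the AGM, named classes were compared on plates with at least 20 cells of both, with the plate as a block, and between 54.3% and 63.0% of all genes passed, so that a member that passed did what most genes did. Of the 3 named classes slc1a4 was highest in HSPC-like cells, at 53.7, 35.3, 28.0, 37.8 and 46.3 CPM on plates X3 and C1 to C4, against 2.61, 0, 0, 4.88 and 10.2 CPM in Neutrophil-like cells of the same plates (2.77 ± 0.41, adjusted p = 2.1e-05, where 63.0% of all genes passed). Slc1a4 was higher in HSPC-like than in Monocyte-like cells as well (2.53, adjusted p = 0.00028, where 59.0% passed), and the 2 classes did not overlap on these 5 plates. Over all 10 AGM plates with 20 or more Monocyte-like cells, slc1a4 in that class lay between 1.89 and 53.4 CPM. Asns was highest in Neutrophil-like cells. It had 72.0, 90.3, 67.1, 48.5 and 48.5 CPM in HSPC-like cells, against 154, 212, 183, 110 and 121 CPM in Neutrophil-like cells (-1.77 ± 0.13, adjusted p = 8.0e-09).

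Ddit3 and sesn2 were highest in Monocyte-like cells. Ddit3 had 24.3, 27.5, 20.7, 17.9 and 10.6 CPM in HSPC-like cells, against 46.3, 113, 173, 100 and 78.9 CPM in Monocyte-like cells (-2.56, adjusted p = 7.5e-06). Sesn2 had 43.6, 47.1, 11.0, 35.2 and 35.1 CPM in HSPC-like cells, against 111, 33.7, 70.4, 147 and 136 CPM in Monocyte-like cells (-1.95, adjusted p = 0.00017). For ddit3 the 2 classes did not overlap, and for sesn2 C1 had the higher level in HSPC-like cells. Between Monocyte-like and Neutrophil-like cells on 9 plates, where 54.3% of all genes passed, ddit3 (1.36, adjusted p = 2.7e-07) and sesn2 (1.08, adjusted p = 0.00016) were higher in Monocyte-like cells and asns was lower (-1.76, adjusted p = 4.0e-09). Ddit3 was also lower in HSPC-like than in Neutrophil-like cells (-1.25 ± 0.25, adjusted p = 0.00034). Atf5a was lower in HSPC-like than in Monocyte-like cells with an adjusted p of 0.044 (-0.84), and did not pass without C2 (0.11), C3 (0.24) or C4 (0.094), in DESeq2 (0.16), with no filter on low counts (0.081), with krt4-high wells kept (0.13) or with 7 clusters (0.054), and was at 0.35 with cells clustered on log-scaled values, a setting chosen after seeing the data. Chac1 was high in all 3 classes, between 587 and 1160 CPM on any plate, and passed in none of the 3 comparisons.

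**Figure D5:**
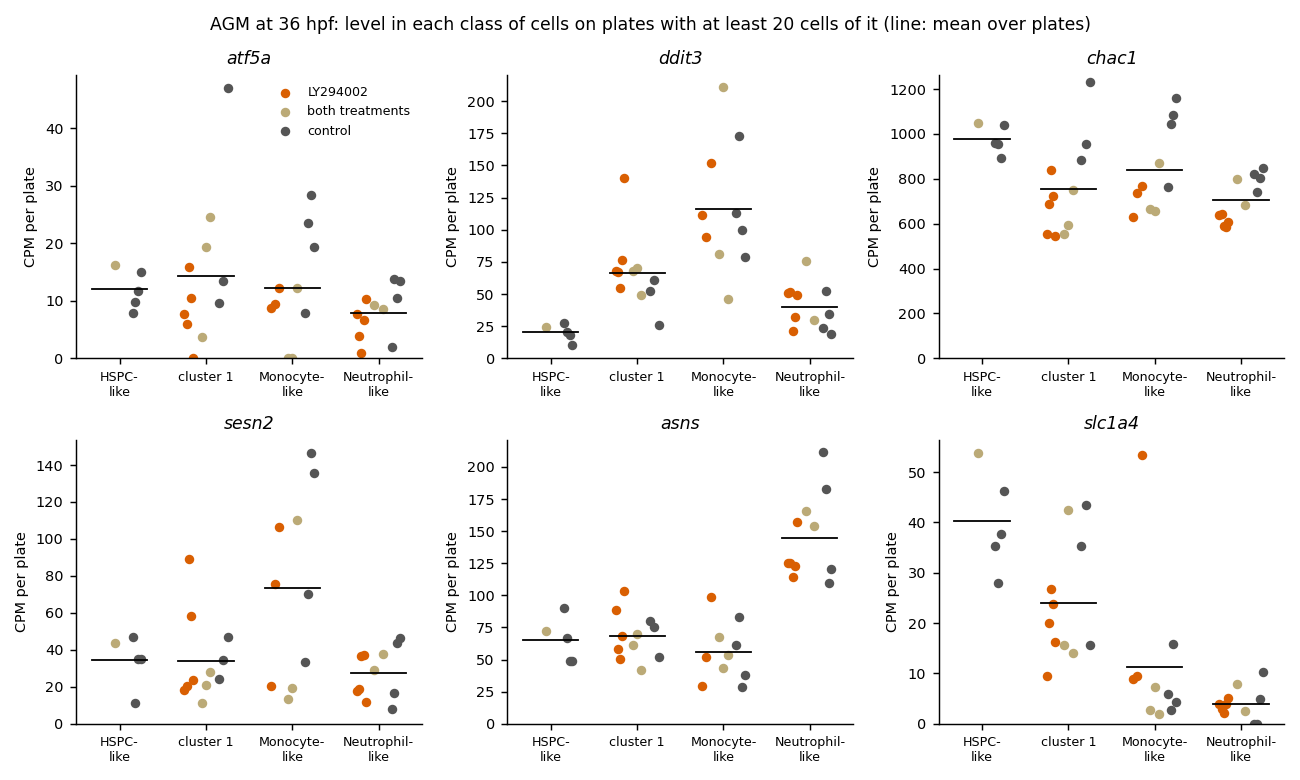
Level of the 6 genes in classes of AGM cells at 36 hpf, in CPM. Only plates where the class had 20 or more cells are drawn, and lines are means over plates. Points are coloured by treatment, with LY294002 left of plates of both treatments and of controls. Slc1a4 is at 28.0 CPM or more in HSPC-like cells, and asns is at 110 CPM or more in Neutrophil-like cells.

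In the CHT the classes could be compared on the mutant and sibling plates, where Erythrocyte-like and HSPC-like cells differed in 36.1% of all 7051 genes tested (1273 up and 1269 down). Over mutants and siblings together the log2 difference of Erythrocyte-like over HSPC-like cells was 2.98 ± 0.25 for atf5a (SE, 4 plates), 1.52 ± 0.34 for sesn2 and 0.74 ± 0.22 for chac1, given as a description without a test, since these sums include the mutant classes that chose the members. The sibling classes entered the choice of the members too, so their differences are likewise given without a test. In siblings alone atf5a was higher in Erythrocyte-like cells (2.29) and slc1a4 was lower (-1.55), while chac1 was at 0.03. Of all genes tested in siblings alone 20.4% passed. Sesn2 had 3 and 4 UMIs (3.93 and 10.8 CPM) in Erythrocyte-like cells of siblings, against 8 and 9 UMIs (5.46 and 8.23 CPM) in their HSPC-like cells, so that the classes overlapped outside the mutants. In siblings the lower slc1a4 level of Erythrocyte-like cells rested on 8 UMIs over both plates, against 58 UMIs in HSPC-like cells. The share of cells with a UMI, before thinning, was not lower on S1 (5 of 47 Erythrocyte-like cells, against 9 of 94 HSPC-like cells). On S2 it was 1 of 30, against 11 of 75 cells. In mutants the slc1a4 level was at 241 and 233 CPM in Erythrocyte-like cells, against 141 and 129 CPM in HSPC-like cells.

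Across the 12 AGM plates, which took no part in the choice of the members, the 6 genes did not move as 1 group. Of the 15 pairs, 2 passed a permutation test of Pearson's r (two-sided, adjusted over the 15 pairs). The permutations treat the 12 plates as exchangeable, although the plates differ in treatment and sort period. Atf5a and sesn2 had r = 0.81 (adjusted p = 0.023 by permutation, rho = 0.77, permutation p = 0.0049), and r = 0.68 without the 2 plates farthest from the median. Within sort days 1 to 4 r was 0.86 and within days 10 to 12 it was 0.89, over 6 plates each. Ddit3 and sesn2 had r = -0.77 (adjusted p = 0.030 by permutation, rho = -0.74, permutation p = 0.0077), and r = -0.68 without 2 plates. That relation did not hold within both sort periods, since r was 0.37 within days 1 to 4 and -0.90 within days 10 to 12. Every pair among atf5a, chac1, sesn2 and slc1a4, genes named after the values were seen, had a positive r over all plates and within each sort period. Within days 1 to 4 this was not particular to them, since of all 15 pairs only ddit3 and asns had a negative r (-0.079). Atf5a and slc1a4 had the highest rho of all pairs (0.83, adjusted p = 0.0186 by permutation), with r = 0.65 (adjusted p = 0.067 by permutation).

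Genes with a pattern most like that of the members were sought over sums per plate and class, by Pearson's r with the mean z-score of the 6 genes' log2(CPM + 1), as a description. Sums of 1 plate share a library and its depth. In the AGM (37 sums, 7972 genes) the 5 most alike were pafah1b1b (0.66), ifrd1 (0.64), dnajc15 (0.64), atf4a (0.64) and atf4b (0.63). The list thus held both genes of ATF4 itself, with atf4a between 475 and 1688 CPM over these sums. The members did not all follow their own mean in the AGM. Their r was 0.76 for sesn2, 0.76 for atf5a and 0.69 for chac1, against 0.49 for slc1a4, 0.14 for ddit3 and -0.25 for asns. Likeness to that mean is therefore not likeness to each of the 6 genes. In the CHT (29 sums, 7377 genes) they were tdh (0.89), gnmt (0.89), nars (0.87), ENSDARG00000016465 (0.86) and si:rp71-80o10.4 (0.86). Tdh and gnmt encode enzymes that break down threonine and methylate glycine. The CHT sums include the mutants, whose difference chose the members.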

How the data were processed

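Each plate's table holds estimated counts, which the authors made by mapping SORT-seq (CEL-Seq2) reads to the Zv9 transcriptome (BWA is in the submitters' processing notes) and counting UMIs per gene and well with a correction for UMI collisions. The members and gene lists were chosen with earlier results of these data known. Wells with at least 1500 UMIs and krt4 below 1000 CPM were summed per plate, and per class with at least 20 cells, and rounded. Cells were clustered by k-medoids (5 clusters, 1 minus Pearson's r) without the members and pathway lists. No doublet caller was run. The gene mutated in the mutants and 1 of the pathway lists are not reported here. Sums were tested with edgeR 4.0.16 (quasi-likelihood, TMM, filterByExpr, Benjamini-Hochberg over all genes, threshold 0.05) in R 4.3.3, with sort period as a term in the AGM and plate as a block between classes, and were checked on simulated data. The simulation assumed the same spread for every gene and no effect of sort day. Only genes expected at more than 20 UMIs on the smallest plate were changed. A log2 difference of 1 was then recovered for 99% of changed genes for LY294002 in the AGM. The share was 47% for LY294002 in the CHT, 64% between mutants and siblings and 79% between stages. A log2 difference of 2 was recovered for at least 99%. These shares do not cover rarer genes or differences between sort days. DESeq2 1.42.0, other minimums of UMIs, no filter on low counts, krt4-high wells kept, 7 clusters, thinning to 1500 UMIs and leaving out each plate were the alternatives. Levels were correlated as log2(CPM + 1), with 100000 permutations. Named are the members, at most 6 genes past the test per list and comparison, the members' paralogs and the 5 genes most like the members per stage.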

Additional observations from a re-analysis of the deposited data

Results flagged for a closer look

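On the LY294002 plate L5 of the AGM, 2 levels stood apart from the other 4 plates of the group. Asns in Neutrophil-like cells was at 157 CPM on L5, and ddit3 in cluster 1 was at 140 CPM on L5. Of 42 groups of plates examined 2 had such a plate, and chance marks about 1 group in 20.

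The krt4-high wells, left out of all comparisons, held 3 of the 6 transcripts at higher levels on both mutant plates (79 and 81 wells) than on both sibling plates (5 and 17 wells), and 29.7% of all genes were higher in the same way. Slc1a4 had 112 and 96.5 CPM in these wells of mutants, against 0 and 0 CPM in those of siblings. Asns had 97.9 and 117 CPM in mutants, against 55.0 and 7.97 CPM in siblings. The sibling levels rest on few counts, with 4 and 2 UMIs of asns among totals of 72730 and 250803 UMIs. The totals of these wells in mutants were 1409789 and 1253787 UMIs. Ddit3 had 305 and 272 CPM in mutants, against 220 and 211 CPM in siblings. Atf5a, chac1 and sesn2 overlapped between mutants and siblings or were lower in mutants in these wells, with sesn2 at 61.7 and 62.2 CPM in mutants, against 68.7 and 75.8 CPM in siblings.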

How the results depend on the processing

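No paired analysis was possible because the labels give the groups no shared replicate numbers. In the AGM the number of genes past the test between LY294002-treated embryos and controls (78) was 571 in DESeq2, which also called 2 members, 750 with no filter on low counts, 34 with krt4-high wells kept, 0 without the sort period term, 218 within sort days 1 to 4 and 28 within days 10 to 12, and between 1 and 774 with 1 plate left out, where 0 to 1 members passed. In the CHT the corresponding count (1) was 73 in DESeq2, 693 with no filter on low counts (with 1 member), 9 with wells thinned to 1500 UMIs, and between 0 and 35 with 1 plate left out. Between mutants and siblings 348 genes passed, against 602 in DESeq2, 1857 with no filter, 1613 with krt4-high wells kept, 167 with thinned wells and between 189 and 1362 with 1 plate left out, and the members' median log2 difference of 2.26 was 2.52 with thinned wells and between 2.09 and 2.55 with 1 plate left out. Between stages 4211 genes and 4 members passed, against 1404 and 2 with thinned wells, and between 1254 and 4670 genes and 2 to 5 members with 1 plate left out.

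Between classes of AGM cells thinning left 1852 genes and 1 member for HSPC-like against Neutrophil-like cells, 1797 and 2 for HSPC-like against Monocyte-like cells, and 1378 genes for Monocyte-like against Neutrophil-like cells. Clustering on log-scaled values, chosen after seeing the data, gave 5 members in the first of these and turned atf5a to 0.35 in the second. Between Erythrocyte-like and HSPC-like cells of the CHT 1406 genes passed in DESeq2, 410 with thinned wells and 1462 in siblings only, 5 members with 7 clusters, and 1620 to 2034 genes and 1 to 4 members with 1 plate left out, where the counts of members support nothing, since the mutant plates chose them. There ddit3 (-0.36), asns (-0.61) and slc1a4 (-1.55) turned in siblings only, and asns turned without M1 (-0.10) and without M2 (-0.053), with a highest value of 0.29 with 1 plate left out. Mutant minus sibling ddit3 in HSPC-like cells turned to 0.39 with a minimum of 3000 UMIs, 0.40 with krt4-high wells kept, 0.21 with 7 clusters, 0.39 with thinned wells and 0.51 on log-scaled values. In cluster 3 ddit3 turned to 0.022 with 7 clusters and was between -0.49 and 0.26 (without M1) with 1 plate left out, and chac1 was between -0.23 and 0.022 (without S2), with 0.00079 without M2. Sesn3 turned to -0.063 without M2, ddit3 under LY294002 in the CHT was between -0.83 and 0.19 (without V2) with 1 plate left out, and atf5a between stages turned to -0.18 with siblings as the CHT group. By Spearman's rho 5 pairs of members passed, and ddit3 and sesn2 had r = 0.37 within days 1 to 4. The cause of these changes was not tested. Too few plates held 20 HSPC-like cells for their stage comparison, LY294002 comparison or correlation, which were not run. At the depth of the CHT plates, rare members such as sesn2 rest on few UMIs.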
